A study of Homo sapiens with 42 samples.

Results

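Proline is made and broken down by a short set of enzymes, and the transcripts of 5 of them were followed in 7 human acute lymphoblastic leukaemia cell lines. ALDH18A1, PYCR1 and OAT act in synthesis, and PRODH and ALDH4A1 in breakdown. The 5 genes were taken by symbol from the deposited count tables, and all 5 were listed among the 50648 genes that the 7 tables have in common. Cells of each line were exposed to 1 IU/ml of L-asparaginase for 4 h or left untreated. The labels describe 3 independent experiments, so that the 42 libraries form 14 groups of 3. L-asparaginase is an enzyme drug that removes asparagine, and more slowly glutamine, from the medium. Nalm6, SUPB15, RS411, REH and 697 are B-cell precursor lines, and CEM and DND41 are T-cell lines. Treated and untreated cells alike were kept in RPMI-1640, a medium that holds proline, with serum and added glutamine, and each line stands for 1 leukaemia.

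In mitochondria, ALDH18A1 (pyrroline-5-carboxylate synthase) reduces glutamate to the intermediate pyrroline-5-carboxylate, and OAT (ornithine aminotransferase) links the same intermediate to ornithine. PYCR1 in mitochondria and PYCRL (now called PYCR3) in the cytosol reduce pyrroline-5-carboxylate to proline. PRODH oxidises proline back to pyrroline-5-carboxylate, and ALDH4A1 oxidises that to glutamate. ATF4, the transcription factor of the amino acid response, is known to act on ALDH18A1 and PYCR1 in other cells.

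Total counts per library lay between 15.07 and 77.14 M (mega counts), the median being 40.28 M. Levels are given as CPM, counts divided by library depth in mega counts, scaled between libraries by TMM. The T-lineage gene CD3D was at 395 CPM or more in every CEM and DND41 library and at 0.93 CPM or less in every library of the B-cell precursor lines. PAX5, which defines the B lineage, was at 217 CPM or more in those B-cell precursor libraries, at 0.549 CPM or less in CEM and at 0 counts in DND41, although DND41 held 622 to 1030 CPM of the B-lineage gene CD79A. Untreated library A of Nalm6, SUPB15, RS411 and DND41 and untreated library 1 of 697 departed alike from the rest of their groups, as their deviations over 8511 genes correlated at a median of 0.71. These 5 libraries are named below wherever they move a value. A further 3 treated libraries, SUPB15 C, REH A and RS411 B, were left out together in 1 alternative. SUPB15 C held neural markers and REH A held PRSS12, with values given beside the results they touch. RS411 B had its T-lineage markers at a summed 121 CPM, as did treated library C of RS411. Of these 7 markers, 0 were without counts in RS411 B, against 3 in treated A, 4 in treated C and 3 or 4 in the untreated RS411 libraries.

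ALDH18A1 was expressed at a similar level in all 7 lines, PYCR1 and OAT were each nearly absent from some of them, and PRODH was nearly absent from all. Because levels of different genes can only be set side by side per length, CPM were divided by the exon length of each gene in kilobases. Untreated means of ALDH18A1 lay between 38.2 and 57.8 CPM per kilobase. Those of PYCR1 were 43.4 CPM per kilobase in RS411, the highest line, and 6.6 CPM per kilobase in CEM, the lowest line with any count. OAT reached 53.2 and 53.4 CPM per kilobase in Nalm6 and REH, a level near that of ALDH18A1. ALDH4A1 lay between 1.01 and 7.52 CPM per kilobase.

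**Figure D1:**
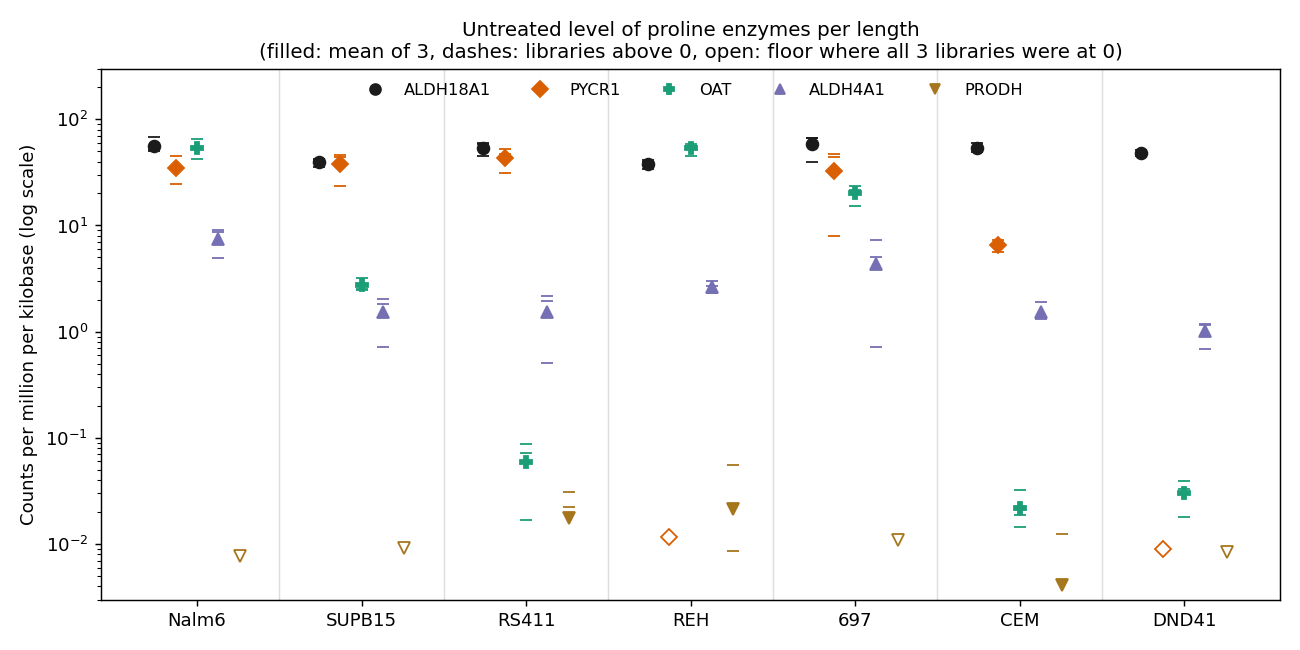
Untreated level of 5 proline genes in the 7 lines, in CPM per kilobase of exon on a log axis. Filled symbols are means of 3 libraries, dashes are single libraries above 0, and open symbols stand at the floor of 3 counts over the group where all 3 libraries were at 0. ALDH18A1 keeps to a narrow band, whereas PYCR1 is at the floor in REH and DND41 and OAT is below 0.1 in RS411, CEM and DND41.

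Whether untreated levels differed between lines was tested over the 7 untreated groups with edgeR's quasi-likelihood F test. All 4 genes that could be tested passed, with adjusted p = 3.9e-30 for OAT, 3.6e-14 for PYCR1, 5.2e-07 for ALDH4A1 and 0.00065 for ALDH18A1, but 86.7% of all 20983 genes tested passed as well. Over the 21 pairs of lines, 46.4% of tests over all genes were called at an adjusted p under 0.05. Against that share, OAT differed in 18 pairs, PYCR1 in 14, ALDH4A1 in 10 and ALDH18A1 in 8. In bulk libraries, a lower level in every cell and a smaller share of cells that express a gene cannot be told apart.

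ALDH18A1, which lies at chr10:95605929-95656706 on the minus strand (GRCh38, GENCODE v29), fell in the mean of the 7 lines and was called lower in RS411 and CEM. Its untreated level ranked 697, Nalm6, RS411, CEM, DND41, SUPB15 and REH, at 194, 189, 182, 181, 161, 133 and 128 CPM, and no neighbours in that order differed (adjusted p between 0.12 and 1). REH, the lowest line, lay 0.60 log2 units below 697, the highest (edgeR adjusted p = 0.00083).

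In CEM, ALDH18A1 was at 122.6, 118.7 and 116.4 CPM in the L-asparaginase libraries A, B and C, against 164.3, 178.9 and 200.6 CPM in the untreated ones. All 3 treated libraries lay below all 3 untreated ones. The log2 fold change was -0.59 ± 0.088 (SE), a 1.51-fold lower level (edgeR adjusted p = 0.00033). In RS411 the treated libraries held 122.1, 129.4 and 130.9 CPM and the untreated ones 151.5, 199.2 and 194.3 CPM. The groups did not overlap, and the level was 1.41-fold lower (log2 fold change -0.50 ± 0.12, edgeR adjusted p = 0.028). That call was lost when any library of RS411 other than untreated A was left out (edgeR adjusted p between 0.085 and 0.14), with log2 fold changes between -0.51 and -0.45. DND41 had 132.5, 138.3 and 126.9 CPM with L-asparaginase and 160.4, 152.2 and 171.7 CPM without it. Its groups did not overlap either, but the change of -0.26 ± 0.11 missed the threshold (edgeR adjusted p = 0.12). Treated libraries thus lay below all untreated ones in 3 of 7 lines, a pattern found in 20.4% of all tests of a gene in a line.

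REH had an ALDH18A1 mean of 110 ± 8.4 CPM with L-asparaginase and 128 ± 13.1 CPM without (SD, n = 3), a log2 fold change of -0.18 ± 0.10 (edgeR adjusted p = 0.22, and 0.049 with the replicate block). In Nalm6, SUPB15 and 697 the groups overlapped and the log2 fold changes were 0.02, -0.06 and 0.08. Over the 7 lines the mean change was -0.23 ± 0.055, a 1.17-fold lower level (edgeR adjusted p = 0.0011). In the same contrast 19.6% of all genes were called lower. It kept its sign and its call in each of the 55 alternatives run for it. A difference of the response between lines was not called (interaction adjusted p = 0.061, against 19.4% of genes called), but the interaction passed with the replicate block (adjusted p = 0.036), without the 5 deviating libraries (0.015) and with another scaling of library sizes (0.03).

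PYCR1, at chr17:81932384-81942412 on the minus strand, passed the filter on low counts in 5 lines, and over these 5 it was on average higher with L-asparaginase. Its untreated level was 99.9 ± 25.5 CPM in RS411, 87.3 ± 29.04 CPM in SUPB15, 80.7 ± 23.5 CPM in Nalm6 and 75.4 ± 49.7 CPM in 697 (SD, n = 3), and these neighbours in the order did not differ beyond their spread (adjusted p between 0.8 and 0.92). CEM followed at 15.2 ± 2.0 CPM, 4.97-fold below 697 (edgeR adjusted p = 0.00021). In REH and DND41 the gene was at 0 counts in all 3 untreated libraries, of 108.71 and 136.69 M counts in sum. At a floor of 3 counts over the group, PYCR1 was at least 568-fold lower in REH and at least 733-fold lower in DND41 than in CEM. The counting was not stated to use the strand, and in GENCODE v29 the gene MYADML2 and antisense transcripts overlap PYCR1, so its counts may hold reads of these.

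DND41 had no PYCR1 count in its treated libraries either, so all 6 of its libraries, with 260.98 M counts, were at 0. In REH, 24 counts (1.58 CPM) fell in L-asparaginase library A and none in the other 5 libraries. The same library held 68 counts of PRSS12, against 1 count in the other 5 REH libraries together. PRSS12 had 11248 to 16439 counts in RS411 libraries and at most 2 counts in any library of the lines other than RS411 and REH. The ratio of PRSS12 to PYCR1 counts was 2.83 in REH A, against 2.62, 2.34 and 2.34 in the treated and 6.17, 2.49 and 2.80 in the untreated RS411 libraries. Of the T-lineage markers, CD3D, CD3E, CD3G and CD7 were at 0 counts in REH A. LCK, BCL11B and TRAT1 had 439, 199 and 4 counts there, against 5806, 4694 and 82 in the other 5 REH libraries together. Where the 24 counts came from was not tested.

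CEM, the expressing line with the lowest level, was the line in which the PYCR1 response was called. Its L-asparaginase libraries A, B and C held 25.97, 28.97 and 34.04 CPM, against 12.95, 15.66 and 16.91 CPM in the untreated ones. The groups did not overlap, and the level was 1.97-fold higher (log2 fold change 0.98 ± 0.12, edgeR adjusted p = 0.00011). When CEM was read from the model of all 42 libraries, in which the lines share 1 estimate of the spread, the change was 0.97 with an adjusted p of 0.22.

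In 697, PYCR1 was at 179.2, 183.9 and 174.8 CPM with L-asparaginase and at 18.17, 107.6 and 100.5 CPM in untreated libraries 1, 2 and 3. All treated libraries were higher, but untreated library 1, which is one of the 5 that deviated, was far below the other untreated ones. The log2 fold change was 1.26 ± 0.56 (edgeR adjusted p = 0.27), and without that library 0.80 (adjusted p = 0.00036). SUPB15 held 121.4, 138.4 and 149.3 CPM with L-asparaginase and 53.88, 102.0 and 106.1 CPM without it, the lowest value again from deviating library A. The groups did not overlap, and the change of 0.63 ± 0.23 missed the threshold (edgeR adjusted p = 0.073). It passed with the replicate block (0.68, adjusted p = 0.031) and without untreated A (0.42, adjusted p = 0.0071).

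RS411 held 125.8, 132.7 and 131.3 CPM of PYCR1 with L-asparaginase and 71.28, 120.1 and 108.3 CPM without it. Here, too, all treated libraries were above all untreated ones, with a log2 fold change of 0.40 ± 0.17 (edgeR adjusted p = 0.16). In Nalm6 the values were 79.11, 75.66 and 102.9 CPM with L-asparaginase and 56.72, 81.83 and 103.6 CPM without it. These groups overlapped, and the change of 0.13 ± 0.19 had a 95% interval from -0.28 to 0.54. Treated libraries therefore lay above all untreated ones in 4 of the 5 lines in which PYCR1 was tested, a pattern seen in 20% of all tests of a gene in these lines. In 4 of the 5 lines (Nalm6, SUPB15, RS411 and 697) the lowest untreated value came from the library that deviated, at 0.68 to 2.51 log2 units below the other 2, and the part of this in the result was not tested beyond the values without these libraries.

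Over the 5 lines the mean PYCR1 change was 0.66 ± 0.21, a 1.59-fold higher level (edgeR adjusted p = 0.014), in a contrast that called 16.2% of all genes higher. Without the 4 deviating libraries of these lines, and that of DND41, it was 0.46 (adjusted p = 0.0036). The call was lost when 697 (0.52, adjusted p = 0.1) or CEM (0.59, adjusted p = 0.054) was left out of the average, and with DESeq2 (0.66, adjusted p = 0.15). A difference of the response between the 5 lines was not called (interaction adjusted p = 0.67, against 13.7% of genes called). No mean over 7 lines can be given, since REH and DND41 had groups at 0.

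**Figure D2:**
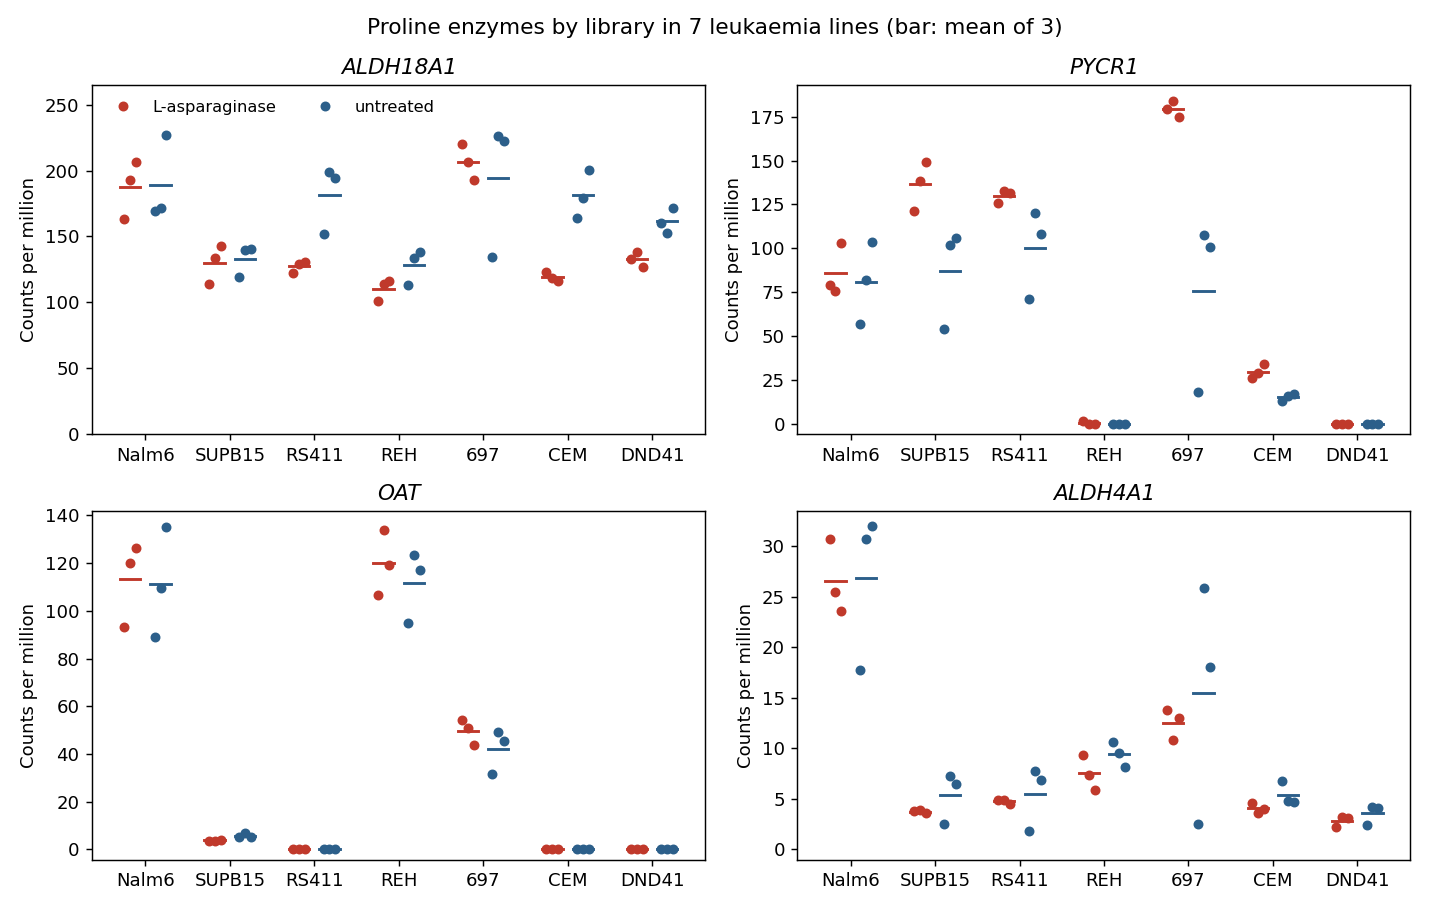
CPM of ALDH18A1, PYCR1, OAT and ALDH4A1 in each library, by line, with L-asparaginase in red on the left and untreated in blue on the right. Points are libraries and bars are means of 3. Treated PYCR1 values lie above all untreated ones in SUPB15, RS411, 697 and CEM, and treated ALDH18A1 values below all untreated ones in RS411, CEM and DND41.

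PYCRL, the cytosolic reductase, rose 1.72-fold in Nalm6 (edgeR adjusted p = 0.0068) and was called in no other line. Only in REH was its fitted log2 fold change below 0, at -0.29 ± 0.16 (edgeR adjusted p = 0.21). There all treated libraries lay below all untreated ones. Its mean over 7 lines was 0.34 ± 0.14 and missed the threshold (adjusted p = 0.052, and 0.023 with the replicate block), where 17.8% of all genes were called higher. Without the 5 deviating untreated libraries it was 0.17 and called (adjusted p = 0.012). Over the 5 lines in which PYCR1 was tested, with all libraries, the PYCRL mean was 0.48 ± 0.17 (edgeR adjusted p = 0.023). There 16.2% of all genes were called higher. PYCRL was also low in the 5 deviating untreated libraries, by 1.24 log2 units on average.

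OAT, at chr10:124397303-124418976 on the minus strand, differed in level between more pairs of lines than the other 3 genes tested, and its only called response was a fall in SUPB15. Untreated REH and Nalm6 held 111.6 ± 15.0 and 111.3 ± 23.1 CPM (SD, n = 3) and did not differ (adjusted p = 1). Below them, 697 held 42.1 ± 9.1 CPM and SUPB15 5.71 ± 0.87 CPM, and each differed from the line above it (edgeR adjusted p = 3.8e-08 and 4.7e-15). RS411, DND41 and CEM held 0.12, 0.063 and 0.046 CPM, or 19, 9 and 4 counts in 3 untreated libraries, all below SUPB15 (edgeR adjusted p = 6.4e-18 for RS411). RS411 did not differ from DND41 (adjusted p = 0.067) nor DND41 from CEM (adjusted p = 0.76), whereas RS411 was above CEM (adjusted p = 0.044). The untreated mean of REH was 901-fold above that of RS411, 1770-fold above that of DND41 and 2440-fold above that of CEM. The 2 T-cell lines were both near 0, but so was RS411, a B-cell precursor line.

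In SUPB15, OAT was at 3.72, 3.61 and 4.10 CPM in L-asparaginase libraries A, B and C and at 5.16, 6.72 and 5.26 CPM in the untreated ones. The groups did not overlap, and the level was 1.52-fold lower (log2 fold change -0.60 ± 0.19, edgeR adjusted p = 0.040). The values rest on 95 to 238 counts in treated and 177 to 290 counts in untreated libraries. The call was lost with the replicate block (adjusted p = 0.059), without a filter on low counts (0.067) and when any SUPB15 library other than untreated A was left out (0.065 to 0.18). L-asparaginase library C was among these (log2 fold change -0.66, edgeR adjusted p = 0.093). That library held the 3 neural markers SNAP25, STMN2 and GAP43 at a summed 30.9 CPM, against 0 CPM in the other L-asparaginase libraries and at most 0.0232 CPM in the untreated ones, and their part in the result was not tested further. In the 3 lines with more OAT the groups overlapped. REH averaged 119.9 ± 13.8 CPM with L-asparaginase and 111.6 ± 15.0 CPM without it, a log2 fold change of 0.14 ± 0.12 with a 95% interval from -0.11 to 0.40. Nalm6 averaged 113.3 ± 17.6 CPM with L-asparaginase and 111.3 ± 23.1 CPM without it (0.06 ± 0.15, interval -0.27 to 0.39). For 697 the means were 49.6 ± 5.4 CPM with L-asparaginase and 42.1 ± 9.1 CPM without it (0.23 ± 0.20, interval -0.24 to 0.70). Each of these lines was set against the others in turn, and for OAT only SUPB15 passed. The response of SUPB15 minus the mean of these 3 lines was -0.71 ± 0.22 (edgeR adjusted p = 0.037, not adjusted over lines), in a contrast that called 7.78% of all genes. That call was lost in 11 of 47 alternatives. The 47 include leaving out 1 library at a time of RS411, CEM and DND41, with 6 libraries each, and those lines are not part of this contrast. Of the 11, 10 left out a single library of SUPB15, Nalm6, REH or 697 (adjusted p between 0.051 and 0.16, differences between -0.76 and -0.57), as without SUPB15 untreated B (-0.57, adjusted p = 0.16). Over the 4 lines the mean was -0.06 ± 0.09 (adjusted p = 0.78) and the interaction had an adjusted p of 0.1, against 13% of genes called. Over all 7 lines the mean was -0.32 ± 0.18 (adjusted p = 0.18), and this value leans on CEM, where the treated libraries held 0, 2 and 0 counts and the untreated ones 1, 1 and 2. Without CEM L-asparaginase B it was -0.63 (adjusted p = 0.032).

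Promoter sequences of the 5 genes were looked up in a RefSeq table (GRCh38.p14), which held ALDH18A1, OAT and ALDH4A1. The 250 bases before the RefSeq start of OAT and of ALDH18A1 are shown. They were chosen because one gene was near absent from 3 lines while the other was expressed in all 7. The RefSeq start of OAT lies within its GENCODE v29 span, so the OAT window overlaps the gene coordinates given above. OAT has the window chr10:124418924-124419173 and ALDH18A1 chr10:95656712-95656961, both on the minus strand and written 5′ to 3′. Capitals mark CG dinucleotides in OAT and the motif CACGTG, the E-box bound by MYC with MAX, in ALDH18A1.
OAT: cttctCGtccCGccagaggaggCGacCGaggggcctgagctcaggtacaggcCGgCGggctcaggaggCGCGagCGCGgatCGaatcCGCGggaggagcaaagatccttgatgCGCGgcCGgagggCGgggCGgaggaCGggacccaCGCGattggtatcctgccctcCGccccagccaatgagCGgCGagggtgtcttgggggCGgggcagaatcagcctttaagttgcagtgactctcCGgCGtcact
ALDH18A1: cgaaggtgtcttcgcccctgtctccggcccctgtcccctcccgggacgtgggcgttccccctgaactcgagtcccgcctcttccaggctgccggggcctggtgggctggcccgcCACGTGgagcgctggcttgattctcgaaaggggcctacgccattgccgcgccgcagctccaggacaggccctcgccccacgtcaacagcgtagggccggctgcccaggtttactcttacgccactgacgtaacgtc

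The OAT window held 27 CG dinucleotides and the ALDH18A1 window 24, against a median of 11 over 35116 windows of the same length in the table, and the upstream ALDH4A1 window held 19. The E-box, searched on both strands, occurred once in ALDH18A1, 136 bases before the start, and in neither OAT nor ALDH4A1, and it was present in 6.34% of all windows. The core of the amino acid response element, TGATGNAA on either strand, was in 3.14% of all windows and in none of the windows of these 3 genes. A match or its absence describes only these letters in this window.

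PRODH, at chr22:18912777-18936553 on the minus strand, was almost not detected. It had 32 counts in 42 libraries of 1804.58 M counts in sum, 29 libraries were at 0 and no library had more than 6 counts. RS411 had 10 counts with L-asparaginase and 7 without it, and REH had 7 with it and 5 without it. The line 697 had 2 counts with L-asparaginase and 0 without it, and CEM had 0 with it and 1 without it. Nalm6, SUPB15 and DND41 had 0 in all 6 libraries each. The gene passed the filter on low counts in no line, so a difference was not detectable at this depth. DGCR6 and antisense transcripts overlap it in GENCODE v29, and the few counts may belong to either.

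ALDH4A1, at chr1:18871430-18902781 on the minus strand, was low in all lines and was called in none of them, and its fitted log2 fold change was below 0 in 6 of 7, the exception being Nalm6 at 0.02. The untreated order was Nalm6 with 26.8 ± 7.9 CPM, 697 with 15.5 ± 11.9, REH with 9.4 ± 1.2, RS411 with 5.46 ± 3.21, CEM with 5.43 ± 1.13, SUPB15 with 5.42 ± 2.53 and DND41 with 3.61 ± 1.01 (SD, n = 3). No neighbours in this order differed (adjusted p between 0.13 and 1), whereas Nalm6 differed from every line but 697. Treated means were 26.6, 12.6, 7.53, 4.76, 4.07, 3.76 and 2.86 CPM in the same order of lines.

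ALDH4A1 was among the genes that the deviating untreated libraries moved furthest. In 697 it was at 13.83, 10.80 and 13.03 CPM with L-asparaginase and at 2.54, 25.82 and 18.07 CPM in untreated libraries 1, 2 and 3. In RS411 it was at 4.93, 4.86 and 4.48 CPM with L-asparaginase and at 1.79, 7.73 and 6.87 CPM in untreated A, B and C. In SUPB15 it was at 3.76, 3.88 and 3.63 CPM with L-asparaginase and at 2.53, 7.25 and 6.49 CPM without it. In each of the 3 lines the treated values lay between the deviating untreated library and the other 2 untreated ones. The 5 deviating libraries were on average 1.61 log2 units below the rest of their groups, where the median over all genes was -0.06. With all libraries, the mean over 7 lines was -0.31 ± 0.17 (edgeR adjusted p = 0.16). Without the 5 it was -0.53 (adjusted p = 3.5e-08), and SUPB15 (-0.84, adjusted p = 0.0023), RS411 (-0.58, adjusted p = 0.021) and 697 (-0.79, adjusted p = 0.0055) were then called lower. The share of all genes called without these libraries was not computed.

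CEM has none of these libraries. Its ALDH4A1 values were 4.61, 3.56 and 4.04 CPM with L-asparaginase and 6.73, 4.83 and 4.72 CPM without it. The groups did not overlap, with a log2 fold change of -0.40 ± 0.18 (edgeR adjusted p = 0.099, and 0.033 with the replicate block). REH, which has none either, was at 9.30, 7.40 and 5.88 CPM with L-asparaginase and 10.58, 9.55 and 8.20 CPM without it (-0.30 ± 0.20, adjusted p = 0.29). Its groups overlapped. No difference of the response between lines was called (interaction adjusted p = 1).

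**Figure D3:**
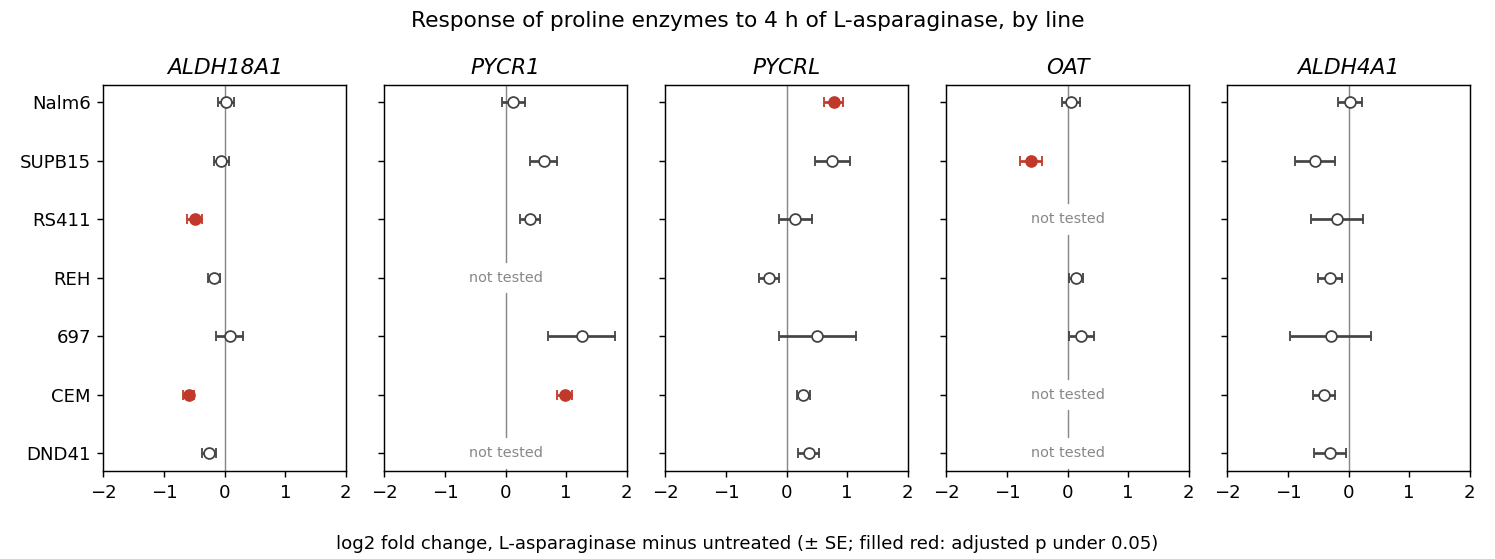
Log2 fold change of L-asparaginase over untreated libraries, with its standard error, for 4 proline genes and PYCRL in each line. Filled red points had an adjusted p under 0.05 in the line's own test. PYCR1 is above 0 in all 5 lines tested, and ALDH18A1 is called lower in RS411 and CEM.

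Of the 5 genes, those that passed the filter on low counts were called as follows in each line's own test, without the replicate block. In CEM, 1 of 3 tested genes was called higher and 1 lower, where 36.7% of all genes were called. SUPB15 had 1 of 4 called, the fall of OAT (26.1% of all genes), and RS411 1 of 3, the fall of ALDH18A1 (12.8%). In Nalm6 (20.8% of all genes), REH (26.5%), 697 (2.4%) and DND41 (26.9%) edgeR called 0 of 4, 0 of 3, 0 of 4 and 0 of 2. At an unadjusted p under 0.05, these 4 lines had 0, 0, 0 and 1 gene, the last being ALDH18A1 in DND41, and DESeq2 called 0 in each of the 4. CEM thus had opposite changes of the first and the last step of synthesis from glutamate, with ALDH18A1 1.51-fold lower and PYCR1 1.97-fold higher. With the replicate block, OAT in SUPB15 lost its call (edgeR adjusted p = 0.059). PYCR1 in SUPB15 (0.031), ALDH18A1 in REH (0.049) and ALDH4A1 in CEM (0.033) were then called.

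A list of 38 other genes around proline was examined in the mean response, where 37.4% of all genes were called in either direction. Of these, 35 were in the tables, 22 gave a mean over 7 lines, 7 were called higher and 8 lower, and their median log2 fold change was 0, against -0.02 over all genes. By role, the 2 carriers with a mean over 7 lines were both higher, and 3 further carriers with counts gave no such mean. Of the 7 genes that use or release proline 3 were higher and 4 lower. Of 7 polyamine genes, which also draw on ornithine, 2 were higher and 3 lower, and of 5 genes that feed the pathway 1 was called, lower. A mean could not be estimated for 5 genes with groups at 0, and 8 had too few counts.

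Among the 22 genes with a mean over 7 lines, P4HA1 had the largest fall. This catalytic subunit of prolyl 4-hydroxylase, which hydroxylates proline in collagen, fell in each of the 7 lines, with a mean of -1.51 ± 0.13 or 2.84-fold (edgeR adjusted p = 6.3e-12). In REH it was at 20.78, 26.18 and 32.20 CPM with L-asparaginase and at 77.51, 120.5 and 192.4 CPM without it. In CEM it was at 46.36, 52.31 and 71.07 CPM with L-asparaginase and at 139.1, 202.6 and 366.4 CPM without it. The groups lay far apart in both lines. The sister gene P4HA2, which gave no mean over 7 lines, was called lower in 5 of the 6 lines where it was tested, and in SUPB15, the exception, its log2 fold change was 0.44 (adjusted p = 0.23). ARG2, a mitochondrial arginase that releases ornithine, fell by 0.76 ± 0.27 on the log2 scale (adjusted p = 0.023). It was called lower in 4 of 5 lines tested, as in CEM with 4.56, 3.58 and 4.86 CPM with L-asparaginase against 8.62, 7.77 and 8.86 CPM untreated. Its mean over 7 lines moved to -0.28 (adjusted p = 0.99) without untreated library 2 of 697, a line with almost no ARG2. SMS, the spermine synthase, fell by 0.36 ± 0.059 (adjusted p = 4.9e-06), and AMD1, which supplies the aminopropyl donor of polyamine synthesis, fell by 0.30 ± 0.065 (adjusted p = 0.00036).

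PARS2, the mitochondrial prolyl-tRNA synthetase, was called higher in 6 lines and had the highest mean change of these 22 genes, 1.07 ± 0.10 or 2.1-fold (edgeR adjusted p = 7e-11). In 697 all treated PARS2 values were above all untreated ones, but the change of 0.83 was not called (edgeR adjusted p = 0.3). In REH, where it rose most, it was at 13.39, 10.66 and 12.27 CPM with L-asparaginase against 4.67, 3.27 and 3.09 CPM untreated. SLC38A2, a carrier of small neutral amino acids that include proline, rose in every line but DND41, with a mean of 0.70 ± 0.059 or 1.62-fold (adjusted p = 6.3e-12). In DND41 it was at 390.1, 577.0 and 519.9 CPM with L-asparaginase and at 391.1, 452.2 and 522.6 CPM untreated, so the groups overlapped. SLC36A1, a lysosomal carrier of proline and other small amino acids, had a mean of 0.59 ± 0.13 (adjusted p = 0.00044) but was called in no line. That mean leans on REH, where it had 3 to 17 counts with L-asparaginase and 2 to 4 counts without it, and without REH it was 0.35 (adjusted p = 0.019). AZIN1, which inhibits antizyme, rose by 0.34 ± 0.058 (adjusted p = 1.1e-05). Outside the naming rule, and chosen after its values were seen, the proline carrier SLC6A20 was called higher in the only lines where it was tested, the T-cell lines CEM (2.36-fold, adjusted p = 0.0046) and DND41 (2.39-fold, adjusted p = 0.0097). SLC36A4, a carrier likewise outside that rule and without a mean, went mostly the other way. It was called lower in 1 of 6 lines tested, CEM (log2 fold change -0.72, edgeR adjusted p = 0.00023). Its change was -1.03 in 697 (adjusted p = 0.057) and 0.18 in REH (adjusted p = 0.49).

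**Figure D4:**
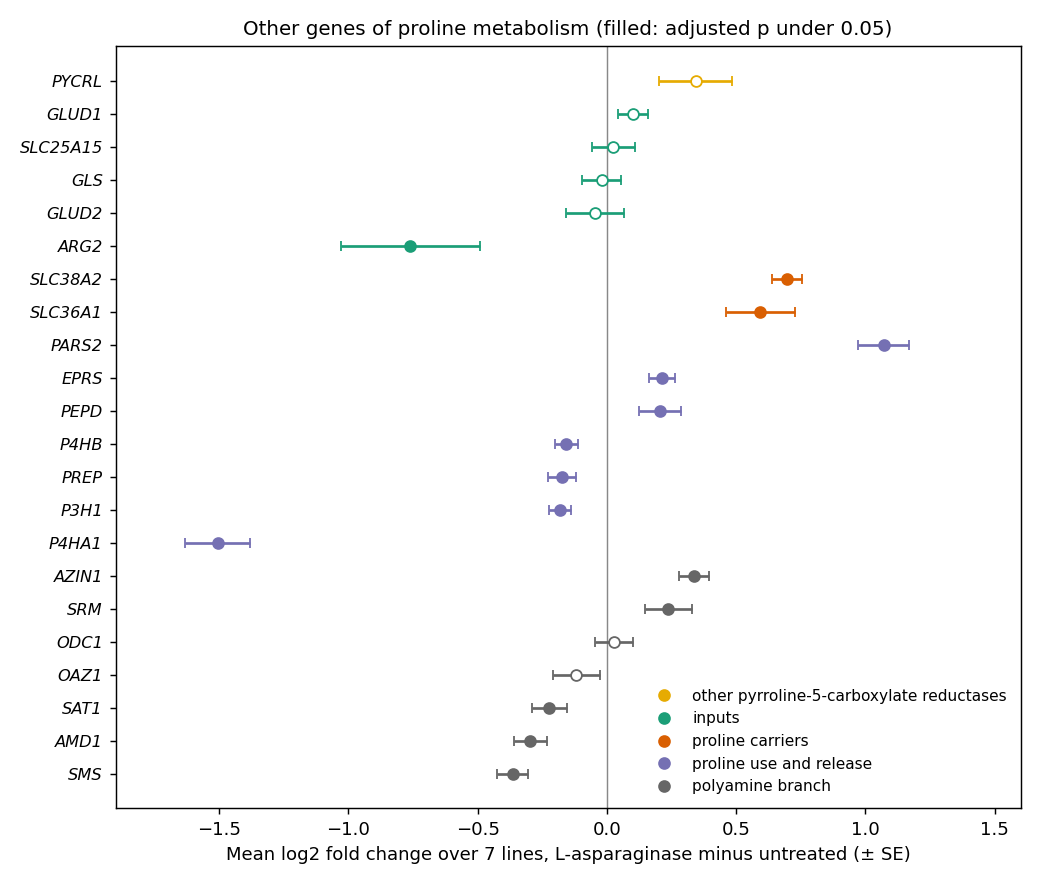
Mean log2 fold change over 7 lines, L-asparaginase minus untreated, with its standard error, for the 22 other genes of proline metabolism that gave a value, grouped by role. Filled points had an adjusted p under 0.05. P4HA1 lies lowest at -1.51 and PARS2 highest at 1.07.

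Genes of the amino acid response were read beside these values as a gauge of the treatment. DDIT3, a stress transcription factor, rose in all 7 lines with a mean of 2.28 ± 0.078 or 4.86-fold (edgeR adjusted p = 1e-21). TRIB3, an inhibitor of AKT and of ATF4, had a mean of 2.37 ± 0.17 (adjusted p = 5e-14), and PSAT1 of serine synthesis one of 1.72 ± 0.18 (adjusted p = 5.9e-10), although PSAT1 was near 0 in DND41. The TRIB3 mean includes 697, with 0.82 CPM untreated and a log2 fold change of 6.23. In Nalm6 the TRIB3 change of 0.93 was not called (edgeR adjusted p = 0.1). MTHFD2, a mitochondrial folate enzyme, rose in all 7 lines with a mean of 1.14 ± 0.080 (adjusted p = 5.9e-14). ASNS, which makes asparagine, was called higher in REH, 697 and CEM, with a mean of 1.07 ± 0.099 (adjusted p = 5e-11), and ATF4 itself had a mean of 0.16 ± 0.053 (adjusted p = 0.013). Each of these means but that of ATF4 was larger than that of PYCR1 over its 5 lines, without a test of that difference. In DND41, where PYCR1 and PSAT1 had almost no counts, DDIT3 was 2.13-fold and TRIB3 2.67-fold higher.

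The genes whose level followed the members most closely over the 42 libraries were listed among the 11722 genes tested in all 7 lines. The libraries share lines, so these Pearson correlations of log2 CPM describe mostly the 7 lines and carry no test. PYCR1 was closest to XYLT1 (0.914), ORAI2 (0.913) and CLEC11A (0.888), and OAT to EPHB4 (0.917), MDK (0.915) and SH3RF1 (0.913). ALDH4A1 was closest to A1BG-AS1 (0.866), NARFL (0.849) and ABHD6 (0.839). ALDH18A1, whose level varied least, reached 0.803 with PPA1 and MACROD1 and 0.80 with TTLL12.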

How the data were processed

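For each of the 7 lines the authors deposited a table of raw counts, with gene symbols as rows and 42 libraries in all. The submitters' processing notes name hg19. No source used here names the aligner, the counter, the annotation or the use of strand. Table columns were matched to groups by line and treatment. Replicates of 697 are numbered in the table headers, while replicates of the remaining lines bear only a letter from A to C. Depth was 15.07 to 77.14 M (mega counts) per library, and 1 CPM at the median depth rests on 40.28 counts. Values computed here on the deposited counts come from edgeR 4.0.16 in R 4.3.3, with TMM scaling, filterByExpr at a minimum count of 10, glmQLFit and glmQLFTest, and Benjamini-Hochberg adjustment over all genes tested. A gene was called at an adjusted p under 0.05.

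Lines were tested separately, on 6 libraries each. A model of all 42 libraries, with 1 coefficient for each of 14 groups, gave mean responses, interactions and untreated levels. PYCR1 was averaged over the 5 lines in which it passed the filter, a choice made after its zeros were seen. Library values on the log2 scale use a prior count of 2. Exon lengths come from GENCODE v29. Fits were tested on simulated data first. Counts of replicates differed beyond sampling noise (lowest chi-square per degree of freedom 15), so none was treated as a duplicate.

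The members and gene lists were chosen with earlier results of these data known. Named genes were the 5 members in every line, PYCRL, the 8 largest called mean changes of the other proline genes, 6 genes of the amino acid response and the 3 most correlated genes of each member. In SUPB15, REH, CEM and DND41, same-lettered libraries deviated together, with the lowest correlation of a pair at 0.19, 0.43, 0.23 and 0.36. The highest correlation of other libraries was 0.14, -0.06, 0 and 0.33 there. In RS411 the lowest pair, at 0.11, was below the highest other correlation, 0.27, so a pairing is less clear. The block is read as a pairing in these 5 lines, and not in Nalm6 (0.06 against 0.13) or 697 (-0.08 against 0.17). One gene of the list of other proline genes is not reported here. Alternatives were RLE scaling, no filter, leaving out libraries or lines, the replicate block and DESeq2 1.42.0. Joint fits without 1 library reused the dispersion trend of the full fit.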

Additional observations from a re-analysis of the deposited data

Results flagged for a closer look

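The response of OAT in SUPB15 differed from that of other lines in a test of the difference itself, with all libraries kept. It was the only difference that passed when each line was set against the others for each tested member. The adjustment covered genes and not the lines searched. SUPB15, at 3.81 ± 0.26 CPM with L-asparaginase and 5.71 ± 0.87 CPM without it (SD, n = 3), changed by -0.71 log2 units relative to the mean of Nalm6, REH and 697 (edgeR adjusted p = 0.037), the other lines in which OAT was tested. That call was lost in 11 of 47 alternatives, 10 of which left out a single library of SUPB15, Nalm6, REH or 697 (adjusted p between 0.051 and 0.16). The 47 include leaving out 1 library at a time of RS411, CEM and DND41, lines that are not part of this difference. The interaction over the 4 lines in which OAT was tested was not called (adjusted p = 0.1). Relative to the mean of all 6 other lines the SUPB15 response was -0.31 (adjusted p = 0.93), and that mean holds 3 lines with a few counts each. Neural markers were present in SUPB15 L-asparaginase C, and without that library, REH L-asparaginase A and RS411 L-asparaginase B the difference was -0.81 (adjusted p = 0.059). The part of these markers in the difference was not tested further. Groups of 3 are too small for a formal test of single outlying samples, so none was made beyond leaving out libraries.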

How the results depend on the processing

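Of 1609 values under alternatives of 54 results, 1481 kept their direction and their side of the threshold, or stayed within 1.5 times for counts of genes. The mean fall of ALDH18A1 and the mean rises of PARS2 and SLC38A2 kept their calls in all alternatives run. The mean of PYCR1 lost its call without 697 (0.519) or CEM (0.59) and with DESeq2 (0.662). Without the 5 deviating untreated libraries, the mean of ALDH4A1 was -0.532 and called, and the interactions of ALDH18A1 (adjusted p = 0.0152) and OAT (0.0453) passed. In that setting 3, 2 and 2 genes were called in SUPB15, RS411 and 697, against 1, 1 and 0 with all libraries. The share of all genes called was computed only for the main fits, at 26.1, 12.8 and 2.4% in these lines. Counts of called genes under alternatives therefore have no share beside them. In Nalm6, where no member was called, leaving out the 5 libraries turned ALDH18A1 (-0.0299), ALDH4A1 (-0.183), OAT (-0.0552) and PYCR1 (-0.0537) below 0, and in 697 it did so for ALDH18A1 (-0.106). Without L-asparaginase libraries SUPB15 C, REH A and RS411 B, 0 genes were called in SUPB15 and 0 in RS411. With the replicate block, 1 gene (ALDH18A1) was called in REH, the interaction of ALDH18A1 had an adjusted p of 0.0359, and ALDH4A1 in 697 was 0.121. It also changed the calls of PYCR1 and OAT in SUPB15, ALDH4A1 in CEM and the mean of PYCRL, and no other call of the results run with it. RLE scaling gave the ALDH18A1 interaction an adjusted p of 0.0299. No filter gave ALDH18A1 -0.0117 and ALDH4A1 -0.0155 in Nalm6, and the joint model -0.0121 and -0.0151. The joint model called 1 gene in CEM and DESeq2 2 in SUPB15, and leaving DND41 out of the mean left 5 other proline genes called lower. The cause of these shifts was not tested.

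Leaving out 1 library at a time gave these ranges. In Nalm6, ALDH18A1 ran from -0.0472 to 0.166, ALDH4A1 from -0.183 to 0.164, OAT from -0.0552 to 0.217 and PYCR1 from -0.0537 to 0.339. ALDH18A1 ran from -0.122 to 0.0275 in SUPB15 and from -0.106 to 0.2 in 697. ALDH4A1 ran from -0.579 to 0.117 in RS411 and from -0.787 to 0.279 in 697. The number of genes called ran from 0 to 3 in SUPB15, 0 to 2 in RS411 and 0 to 2 in 697. The mean of OAT ran from -0.632 to -0.255 and that of ALDH4A1 from -0.365 to -0.227, and the adjusted p of the interaction from 0.0249 to 0.123 for ALDH18A1 and from 0.0457 to 0.299 for OAT. With 3 libraries a group and few counts of OAT and PRODH in several lines, small changes were not detectable.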
